A study of Cyanidioschyzon merolae strain 10D with 4 samples.

Results

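The 117 genes described here are nuclear genes of the red alga Cyanidioschyzon merolae. Their transcripts were abundant in darkness and at most 0.25 times as abundant under blue light. The genes were chosen from the 5100 genes of the deposited table by their values in it. A member lies on a numbered chromosome, shares its locus with no other gene, spans at least 300 bp, had at least 100 FPKM in darkness, and under blue light had at most 0.25 times its darkness value. FPKM counts the sequenced fragments of a gene per kilobase of its length, relative to the size of the library. Of 4457 nuclear genes that met the conditions on locus and span, 2180 reached 100 FPKM in darkness, and 120 of those also met the condition on blue light. The rule leaves out 20 genes by name, and 3 of these were among the 120. Both the darkness and the blue light values thus served to choose the members, so that their fall is a description and not a finding.

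The study compared wild-type cells of strain 10D, grown in 2xMA medium, in 2 conditions with 2 libraries each. Cells of one condition are labelled as kept in darkness, and those of the other were given 30 minutes of blue light of 15 µmol m-2 s-1. The treatment field carries the blue light text on the darkness libraries too, so the titles were used to form the groups. The comparison asks which transcripts respond to blue light. The table holds 1 value per condition, which carries no spread of its own. The design text speaks of biological duplicates, while the sample labels do not say whether each library had a culture of its own.

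Cyanidioschyzon merolae is a unicellular alga of hot acidic springs, and each cell holds a single nucleus, a single plastid and a single mitochondrion. Its compact nuclear genome has few introns. Light drives photosynthesis in such cells and also acts as a signal, which plants and algae read through photoreceptors, among them the blue-light-absorbing cryptochromes. A cell that passes from darkness to light turns from the use of stored reserves to the fixation of carbon, and in this alga cycles of light and darkness also pace cell division. All 117 members matched a locus tag of the RefSeq gene table of assembly ASM9120v1, where each is annotated as protein coding. That table gave 0 of them a symbol other than the locus tag, so the members are called by locus tag. Product names were not used here, and no roles are given. No sequence of the members was used here.

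Members were among the more abundant transcripts of the dark cell. Their darkness values ran from 101 to 5666 FPKM, with quartiles of 269 and 729 FPKM around a median of 427. Their blue light values ran from 0 to 980 FPKM, with quartiles of 17.8 and 89.3 FPKM around a median of 46.9. Ranked among the 4457 nuclear genes, the median member moved from percentile 90.9 in darkness to percentile 20.5 under blue light. In darkness, 63 of the 117 lay in the highest 10%, above 401 FPKM, against 4 under blue light. In the lowest 10% under blue light, below 28.8 FPKM, lay 35 members. Of the 117, 17 had less than 10 FPKM there, beside 5.18% of the 4457 nuclear genes. Not all members were scarce, since 28 still had at least 100 FPKM under blue light. Below the blue light median of the 4457 genes, 94.8 FPKM, lay 89 members. Together they held 8.24% of all nuclear FPKM in darkness and 1.05% under blue light. FPKM values are shares of a total, so a change in the total amount of RNA per cell would not be seen. In RNA from a whole culture, fewer cells that hold a transcript and less of it per cell cannot be told apart.

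**Figure D1:**
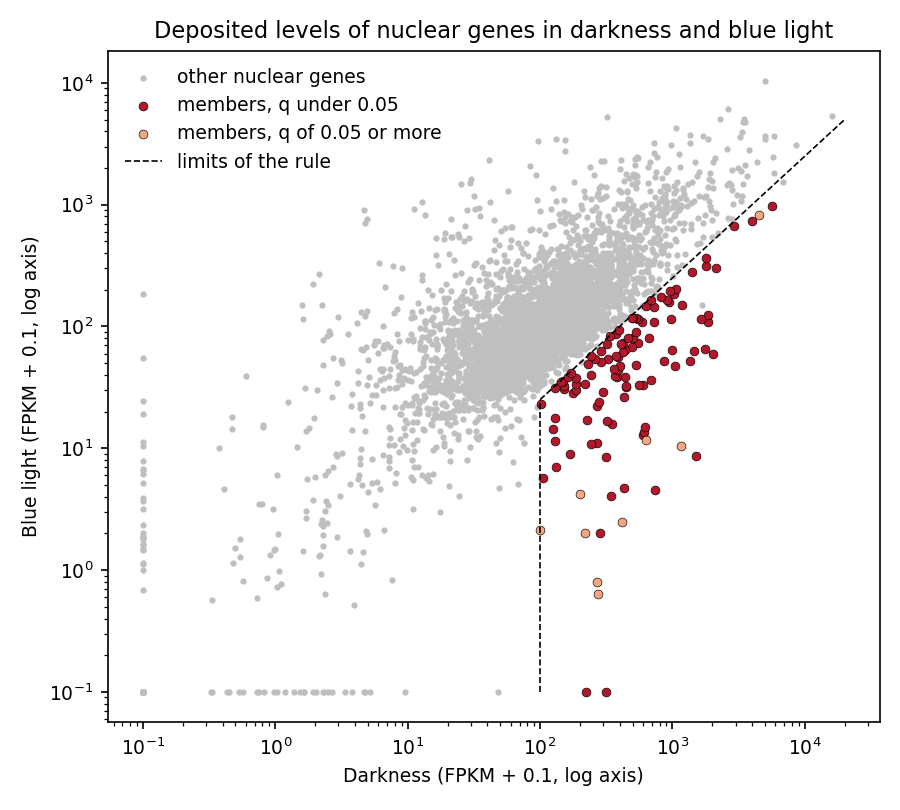
Deposited FPKM of 4457 nuclear genes in darkness (x axis) and under blue light (y axis), each with 0.1 added, on log axes. The 117 members lie below and to the right of the dashed limits of the rule; the 3 grey genes in that area are among those left out by name.

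The share of genes that met the condition on blue light was larger at higher darkness values. Of 1132 nuclear genes with 100 to 200 FPKM in darkness that were not left out by name, 20 were members, or 1.77%. The share was 5.70% of 596 genes between 200 and 400 FPKM and 13.2% of 318 genes between 400 and 1000 FPKM. At 1000 FPKM and above, 21 of 123 genes were members, or 17.1%. These shares are a description, because the darkness value both forms the classes and enters the ratio. Of these classes, the one next to the limit on the darkness value had the smallest share of members. Among the members, all at least 4-fold lower by the rule, the size of the difference hardly followed the darkness level. Spearman's rho was -0.09 over 115 members above 0 in both conditions, also a description because the darkness value enters both measures. The median fold difference was 5.89 in the class of 100 to 200 FPKM, 9.13, 7.44 and 7.90 in the next 3 classes.

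Members 4-fold to 8-fold lower under blue light were about as many as all those with larger differences. There were 60 members in this class, 20 between 8-fold and 16-fold, 25 between 16-fold and 64-fold, and 12 at 64-fold or more or listed at 0. The median log2 fold change in the authors' deposited table was -2.86 over the 115 members above 0, which is 7.27-fold, beside -0.017 over the 4496 tested genes of the whole table above 0. Darkness medians of the 4 classes were 434, 394, 595 and 328 FPKM, from the smallest differences to the largest. Blue light medians were 76.7, 38.8, 15.8 and 2.15 FPKM in the same order. The darkness medians followed no single direction, and the order of the blue light medians is set by how the classes were drawn.

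**Figure D2:**
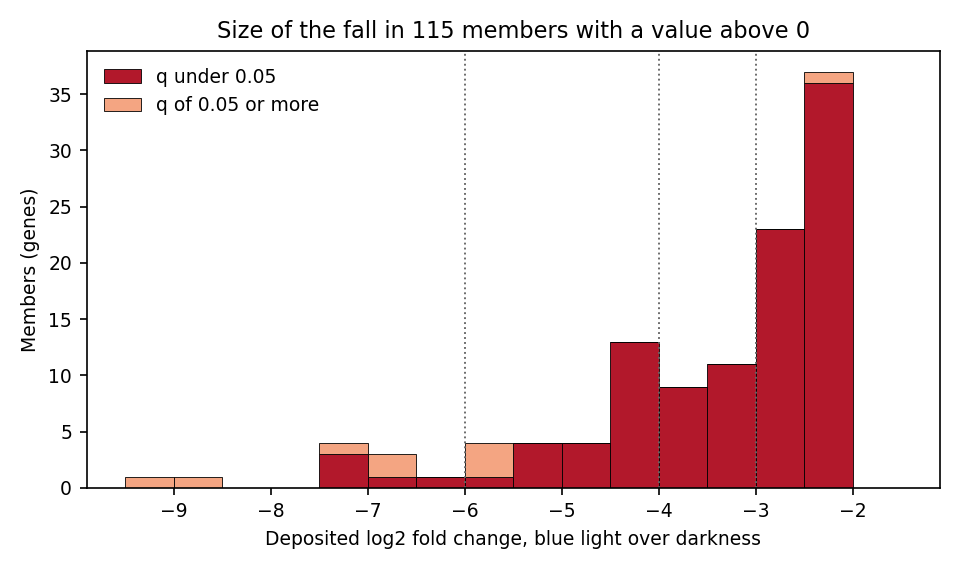
Number of members (y axis) by the deposited log2 fold change, blue light over darkness, in bins of 0.5 (x axis), for the 115 members above 0 in both conditions; dotted lines mark falls of 8-fold, 16-fold and 64-fold. Members without a call by the deposited test (light bars) lie mostly among the largest differences.

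By the authors' deposited table, 108 of the 117 members passed Cuffdiff's test as falls at a q-value under 0.05, beside 26.1% of all 4503 tested genes. Since the members were selected on this contrast, nothing is read from that count. For 99 members the q-value in the authors' deposited table was 0.00021, the smallest it holds. The 9 members that did not pass had q-values between 0.052 and 0.33 in the authors' deposited table. They were not those with the smallest differences: 5 of them belonged to the 12 largest, 3 to the class of 16-fold to 64-fold, and 1 to the 60 members of the smallest class.

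A pair of transcripts was listed at 0 under blue light. CMN051C, on chromosome 14 from 122299 to 122978, had 315 FPKM in darkness, and CMB089C, on chromosome 2 from 253757 to 254580, had 223 FPKM. Fragment numbers behind such values were recovered on the assumption that each value is a sum of whole fragments from 2 libraries. What a fragment is worth in each library was not known and was fitted from the lowest FPKM. The recovered fragment numbers, here and below, rest on that assumption and that fit. For CMN051C they were 121 fragments in the deeper and 114 in the shallower darkness library, or 280 and 350 FPKM, and 0 in both blue light libraries. For CMB089C they were 114 and 101 fragments in darkness, or 206 and 241 FPKM, and again 0 in both blue light libraries. A count of 0 allows up to 3 fragments, taken over both blue light libraries and valued as fragments of the shallower one. On that floor CMN051C was at least 45.0-fold lower under blue light and CMB089C at least 40.9-fold lower. By the recovered numbers, both transcripts were present in every darkness library and not detected in any blue light library.

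CMK010C had the highest darkness value among the members that were at least 64-fold lower. This gene, on chromosome 11 from 24880 to 26285, went from 1516 to 8.55 FPKM, or 177-fold less. The blue light value was made of 5 fragments in each library, 7.45 FPKM in the deeper and 9.65 in the shallower one, while the darkness value stands for about 2790 fragments in all. CMK115C, on the same chromosome from 320822 to 323145, went from 741 to 4.49 FPKM, 165-fold less, with 4 and 5 blue light fragments, or 3.43 and 5.55 FPKM. CMB093C, on chromosome 2 from 264336 to 268561, went from 282 to 1.93 FPKM, 146-fold less, with 2 and 5 blue light fragments, or 0.911 and 2.95 FPKM. In these 3 genes both blue light libraries were low, as the low deposited values require. So few blue light fragments leave the size of the fall imprecise. The darkness libraries of these genes were not resolved, so the spread between them is unknown here.

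CMG099C is one of the large differences that did not pass the deposited test. Located on chromosome 7 from 254110 to 255554, it had 457 and 336 fragments in the darkness libraries, or 423 and 410 FPKM. Under blue light it had 2 fragments in the deeper and 1 in the shallower library, or 2.89 and 1.87 FPKM. The ratio of the deposited values was 175-fold, with an exact Poisson interval of 59.9-fold to 849-fold at 95% confidence, which covers the counting error of the blue light fragments only. Its q-value in the authors' deposited table was 0.065. CMR454C, on chromosome 18 from 1118269 to 1119478, behaved alike at a lower level. It had 82 and 72 fragments in darkness, or 93.1 and 108 FPKM, against 1 fragment in each blue light library, or 1.77 and 2.29 FPKM. Its ratio of 49.5-fold had an interval of 13.7-fold to 409-fold, and its q-value in the authors' deposited table was 0.14. For both genes both blue light libraries were below both darkness libraries, a gap that the choice of members favours. With 1 or 2 fragments in a blue light library, the likeness of the blue light libraries cannot be judged.

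Another 3 members without a call are, like the called CMC074C, of 1887 bp coding length in the RefSeq table. CMH216C, on chromosome 8 from 556711 to 558599, went from 275 to 0.536 FPKM, the latter a single fragment in the deeper library. CMQ418C, on chromosome 17 from 1082337 to 1084225, went from 270 to 0.695 FPKM, the latter a single fragment in the shallower library. Their ratios were 512-fold, with a Poisson interval of 91.9-fold to 20229-fold, and 388-fold, with one of 69.7-fold to 15343-fold. CMM108C, on chromosome 13 from 247199 to 249086, went from 220 to 1.93 FPKM, the latter from 1 and 2 fragments, or 114-fold less with an interval of 39.0-fold to 553-fold. CMC074C, on chromosome 3 from 173642 to 175529, went from 432 to 4.61 FPKM, the latter from 6 and 2 fragments. The q-values in the authors' deposited table were 0.33 for CMH216C, 0.31 for CMQ418C, 0.052 for CMM108C and 0.0015 for CMC074C.

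These 4 genes on 4 chromosomes therefore had one length, a darkness level between 220 and 432 FPKM and at most 8 blue light fragments. Of the 8 nuclear genes of this length, the remaining 4 did not share the pattern. CML157C went from 289 to 111 FPKM, CML324C from 324 to 185 FPKM, and CMF056C from 429 to 654 FPKM, while CMT269C had 2.39 and 3.31 FPKM and no valid test. These 4 were chosen after their values were seen. Having the length of some other gene is common, at 91.6% of the nuclear genes, and 18 further members form 9 pairs of equal length. That share does not tell how often 4 of 8 genes of one length would be members, which was not tested. Whether the 4 members are copies of one another was not tested. If they are near-identical, the counting could divide fragments between them and their single values would be uncertain.

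The last 4 members that did not pass were 3 short genes and 1 very abundant one. CMK012C, on chromosome 11 from 30480 to 30820, went from 1160 to 10.4 FPKM, CML261C, on chromosome 12 from 676078 to 676529, from 629 to 11.6 FPKM, and CMO126C, on chromosome 15 from 314292 to 314746, from 199 to 4.15 FPKM. Their spans of 340, 451 and 454 bp are below the 650 bp needed to recover fragments, so their depth is unknown here. CMO184C, on chromosome 15 from 460967 to 462495, went from 4473 to 824 FPKM, 5.43-fold less, and its q-value was 0.24 by the authors' deposited table. Its darkness value stands for about 9049 fragments, an estimate that assumes equal FPKM in both libraries, and why it did not pass was not tested.

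**Figure D3:**
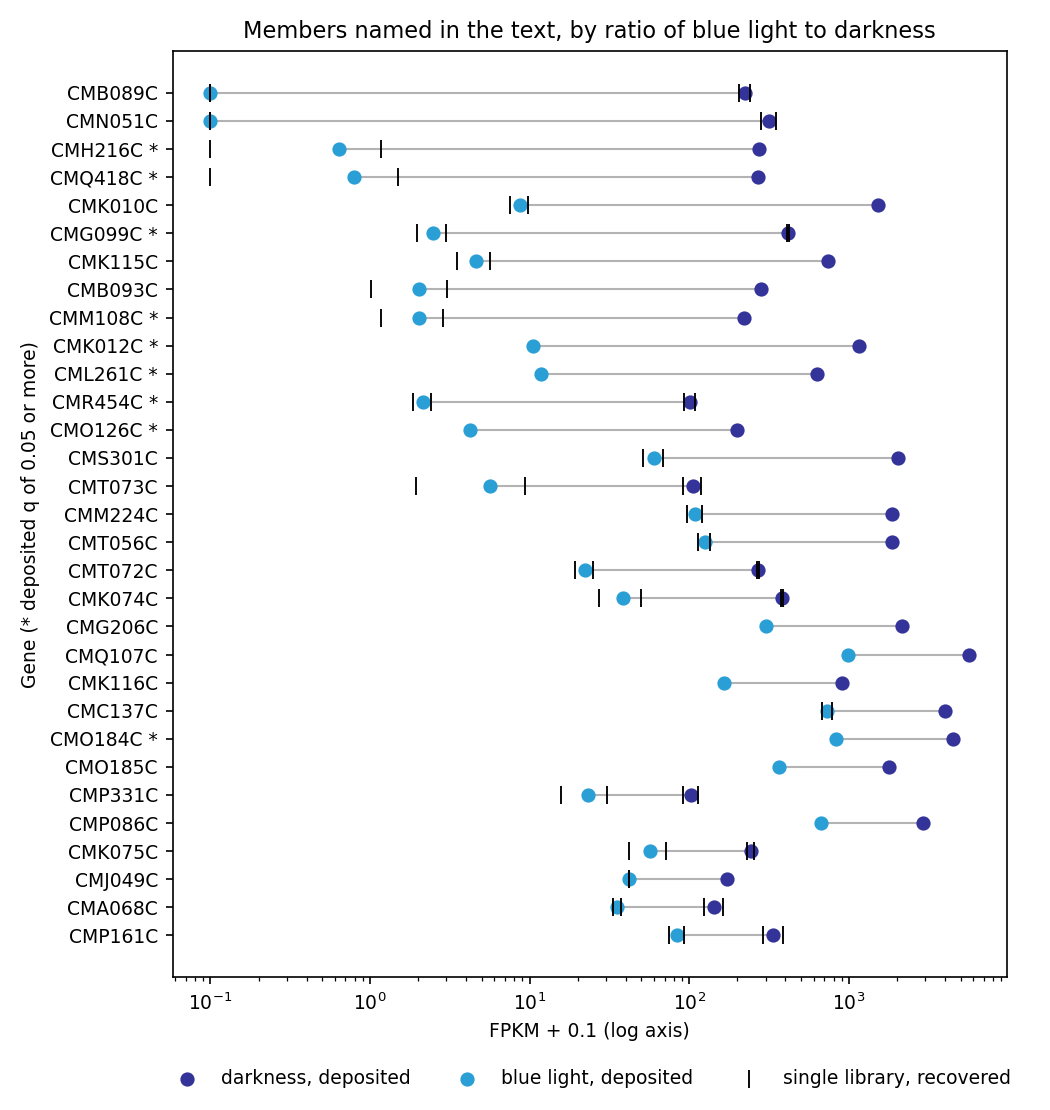
FPKM plus 0.1 (x axis, log scale) of the 31 members picked by the rule for named genes (y axis, asterisk for a deposited q-value of 0.05 or more), with deposited values as points and single libraries, where recovered, as vertical ticks. Genes are ordered by the ratio of blue light to darkness, from the 2 listed at 0 at the top to those near the limit of 0.25 at the bottom.

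Among the 8 most abundant members of the dark cell, 5 differed by less than 8-fold and kept a high level. CMQ107C, on chromosome 17 from 255436 to 255905, was the highest of all members, and its 5666 FPKM in darkness fell to 980, 5.78-fold less. CMC137C, on chromosome 3 from 328167 to 328939, fell from 3978 to 728 FPKM, the latter from 256 and 172 fragments or 777 and 679 FPKM. CMP086C, on chromosome 16 from 210892 to 211361, had 2907 and 669 FPKM, and CMG206C, on chromosome 7 from 540849 to 541789, had 2149 and 301 FPKM. With CMO184C, the first 3 of these are the 4 members still in the highest 10% of nuclear genes under blue light. CMQ107C and CMP086C have the same coding length of 468 bp, and no other of the 4450 nuclear genes with a RefSeq length has it.

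The other 3 of the 8 most abundant members fell far more. CMS301C, on chromosome 19 from 775167 to 776485, fell from 2030 to 59.9 FPKM, 33.9-fold less, the latter from 32 and 33 fragments or 51.3 and 68.5 FPKM. CMT056C, on chromosome 20 from 146498 to 148322, fell from 1872 to 124 FPKM, 15.0-fold less, the latter from 121 and 79 fragments or 135 and 114 FPKM. CMM224C, on chromosome 13 from 554664 to 557092, fell from 1868 to 108 FPKM, 17.2-fold less, the latter from 119 and 113 fragments or 97.2 and 120 FPKM. In darkness CMG206C had 1.06 to 1.15 times the level of these 3, and under blue light 2.42 to 5.02 times. The 8 genes made up 30.5% of the members' summed FPKM in darkness and 36.1% under blue light.

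Genes lay close to both limits of the rule, inside and outside. Nearest inside the limit on the ratio were CMP161C, with 336 and 83.1 FPKM, CMA068C, with 143 and 35.1 FPKM, and CMJ049C, with 171 and 41.7 FPKM in darkness and blue light. Just outside it were CML146C, with 164 and 41.1 FPKM, CMK217C, with 164.0 and 41.0 FPKM, and CMT393C, with 592 and 148 FPKM. Nearest inside the limit on darkness were CMR454C, described above, CMP331C, with 102 and 23.0 FPKM, and CMT073C, with 105 and 5.57 FPKM. Just outside it were CME101C, with 94.8 and 21.7 FPKM, CMR435C, with 90.7 and 18.1 FPKM, and CML168C, with 76.1 and 10.9 FPKM. Across the limit on the ratio the genes differed little. At the darkness limit CMR454C, with 2.03 FPKM, and CMT073C had less left under blue light than the genes just outside, while CMP331C had more. The blue light libraries of CMT073C were unequal, at 9.29 and 1.85 FPKM, the higher one near the 10.9 FPKM of CML168C.

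Agreement between the libraries of a condition was not used by the rule. Blue light fragments could be recovered for 91 of the 97 members that span at least 650 bp, and darkness fragments, which are more numerous and harder to resolve, for 34. The 34 had a median darkness level of 256 FPKM against 531 FPKM in the other members. The highest of the 34 had 729 FPKM, so the most abundant members are missing from comparisons that use darkness libraries. CMC137C and other abundant members do enter those of the blue light libraries alone. Recovered darkness counts ran from 91 to 933 fragments with a median of 374, and blue light counts from 0 to 428 with a median of 44. The log2 difference between the darkness libraries, with 1 FPKM added, had an SD of 0.25 over the 34 members, beside 0.31 over 3077 nuclear genes of at least 10 FPKM. Between the blue light libraries the SD was 0.56 over 91 members and 0.48 over the 75 with at least 10 FPKM. Over 3344 nuclear genes of at least 10 FPKM it was 0.39. The compared genes were not matched for level. Under blue light the median was 46.9 FPKM in all 117 members and 94.8 FPKM in all 4457 nuclear genes. In darkness it was 256 FPKM in the 34 members and 97.7 FPKM in all 4457 nuclear genes. Apart from the 34, these are not the sets compared, which held only genes with recovered fragments. Neither library of the blue light condition was the higher one throughout, with 41 of 91 members higher in the deeper library.

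**Figure D4:**
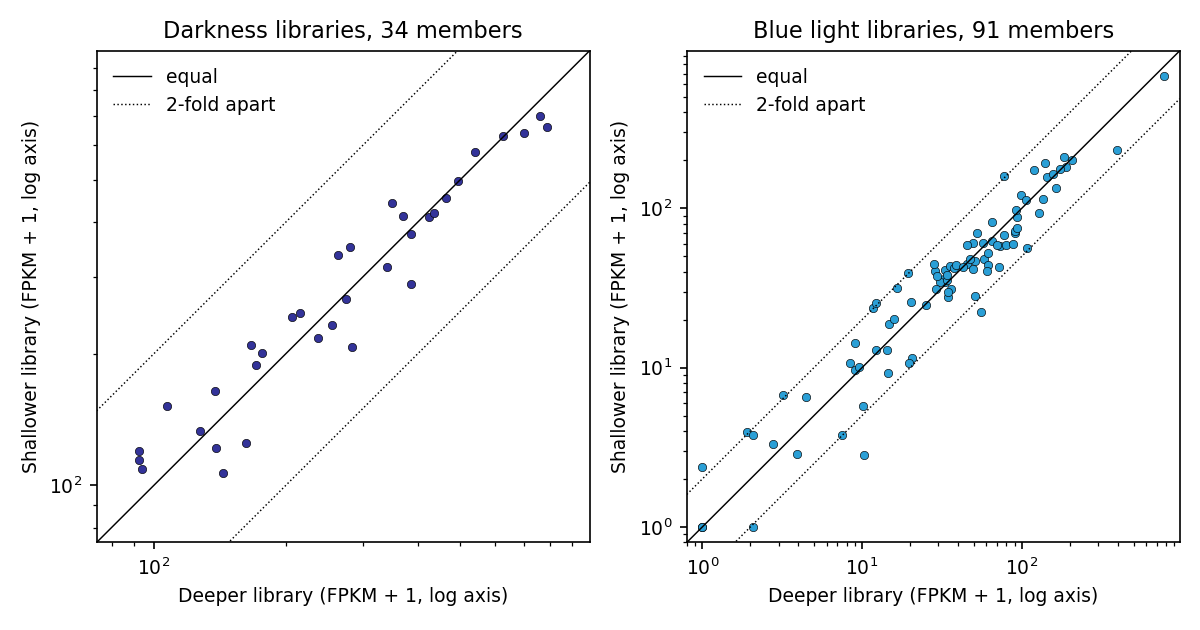
FPKM plus 1 of the members in the shallower (y axis) against the deeper library (x axis) of darkness (left, 34 members) and blue light (right, 91 members), on log axes, with the line of equality solid and 2-fold differences dotted. The darkness libraries stay within 2-fold of each other, and the blue light libraries part mainly at low values.

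CMT073C, on chromosome 20 from 186166 to 188920, differed most between the blue light libraries among members with more than 1 fragment there, with 13 fragments in the deeper and 2 in the shallower one, or 9.29 and 1.85 FPKM. Its darkness libraries held 200 and 197 fragments, or 91.5 and 119 FPKM, so that even the higher blue light library was far below them. In all 34 members with 4 recovered libraries, both blue light libraries were below both darkness libraries, as they were in 39.3% of 3018 tested genes. The smallest gap was that of CMP331C, where the lower darkness library, at 91.5 FPKM, was 3.01 times the higher blue light library, at 30.4 FPKM. A limma fit on these libraries over the 3018 genes called all 34 as falls, beside 27.0% of those genes, CMG099C and CMR454C among them. The members were chosen on the sums of these libraries, and nothing is read from either count.

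Position on the chromosomes did not enter the rule, apart from the demand for a nuclear locus. Members occurred on all 20 nuclear chromosomes, from 1 on chromosome 4 to 10 each on chromosomes 9 and 16. As a share of the nuclear genes that met the conditions on locus and span, they ran from 0.75% on chromosome 4 to 5.43% on chromosome 6, where 7 of 129 genes were members. Among the outermost 10 genes of each chromosome end lay 16 members, or 13.7%, beside 8.34% of all nuclear genes. Their median span of 1293 bp equalled that of the 4457 nuclear genes and exceeded the 1145 bp of the 2180 with at least 100 FPKM in darkness. No test was made of these shares, which are descriptions.

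Some members lay close together. On one side or the other, 8 of the 117 had another member as the next gene of the table. Members thus held 8 of the 232 places next to a member, or 3.45%, while they make up 2.44% of the nuclear genes. With up to 2 other genes between them, 24 members formed 11 neighbourhoods, 2 of 3 members and 9 of 2. Of the 12 genes between them, 4 fell, 0 rose and the others did not pass or had no valid test in the authors' deposited table. Of all 4331 tested nuclear genes that are not members, 24.5% fell and 27.9% rose. With so few genes between members nothing is read from these counts. How many neighbourhoods other sets of 117 genes would form was not tested.

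The 4 adjacent pairs differed in how alike their members were. CMO184C and CMO185C, which are 339 bp apart on chromosome 15, had similar ratios, from 4473 to 824 FPKM and from 1787 to 365 FPKM. CMK074C and CMK075C, 282 bp apart on chromosome 11, went from 380 to 38.4 FPKM and from 242 to 56.6 FPKM. In CMK074C the blue light libraries had 49.8 and 27.1 FPKM against 384 and 375 FPKM in darkness, and in CMK075C they had 71.4 and 41.9 FPKM against 253 and 231 FPKM, so the deeper blue light library was the higher one in both. CMK115C and CMK116C, 899 bp apart, were alike in darkness, at 741 and 909 FPKM, but had 4.49 and 164 FPKM under blue light. Adjacent members thus did not always fall to the same degree.

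The fourth pair lay in a longer stretch of falling genes on chromosome 20. CMT072C, from 183859 to 185759, went from 269 to 22.0 FPKM, with 272 and 266 FPKM in the darkness libraries and 19.2 and 24.8 FPKM in the blue light libraries. CMT073C, the gene with unequal blue light libraries, follows it. On either side are CMT071C, which went from 260 to 82.4 FPKM, and CMT074C, which went from 46.6 to 11.0 FPKM, and both fell at q-values of 0.00021 and 0.0091 in the authors' deposited table. On chromosome 5, members CME096C, CME100C and CME102C lay between 270674 and 286136, and went from 449 to 32.6 FPKM, from 983 to 116 FPKM and from 386 to 43.8 FPKM. CME101C, between the last 2, missed the darkness limit with 94.8 FPKM and fell to 21.7 FPKM. The flanking genes of that neighbourhood, CME095C and CME103C, rose from 122 to 265 FPKM and from 17.7 to 50.2 FPKM. These stretches, like the flanking genes, were singled out after their values were seen.

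The genes next to members were also compared with other nuclear genes. Of 202 tested genes next to a member that are not members themselves, 59 fell and 57 rose in the authors' deposited table. That is 29.2% and 28.2%, beside 24.5% and 27.9% of the 4331 tested nuclear genes that are not members. Their median log2 fold change was -0.099, and it was 0.011 when the nearest tested gene at an unshared locus was taken instead, so no direction is given. Genes at or below 0.5 times their darkness value, called or not, made up 16.8% of these neighbours and 11.2% of the 4331 genes. Next to nuclear genes that had at least 100 FPKM in darkness and 0.67 to 1.5 times that level under blue light, 29.1% of 1180 tested genes fell and 13.1% were at or below 0.5 times. That last set leaves out the steady abundant genes themselves, which raises its share of changed genes. Next to nuclear genes with at least 100 FPKM in darkness and 0.25 to 0.5 times that level, 23.1% of 546 tested genes fell. At or below 0.5 times were 3.48% of these 546, a set without that group itself and without members, which lowers its share of falls. None of these differences was tested.

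**Figure D5:**
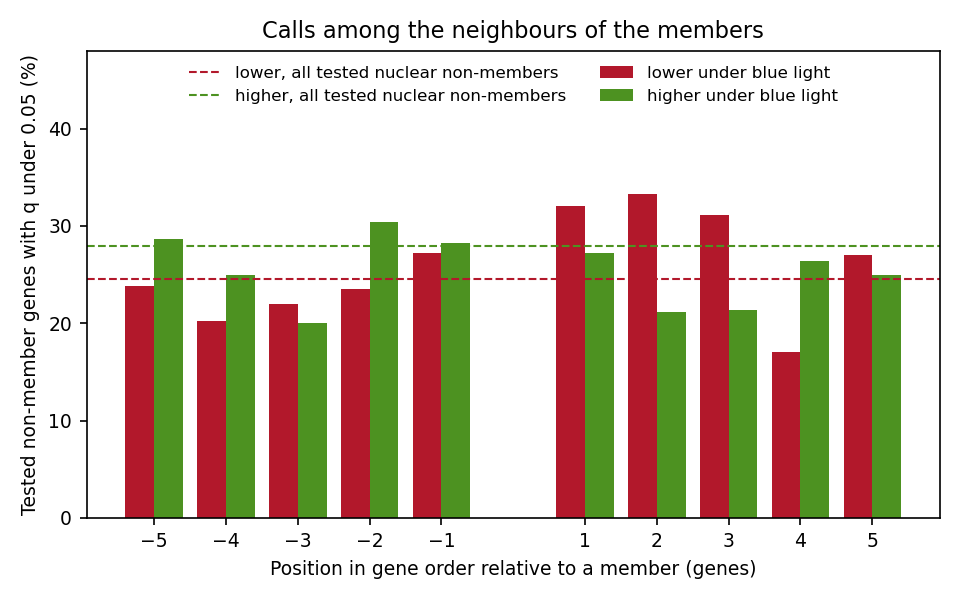
Share of tested non-member genes that were lower (red) or higher (green) under blue light at a deposited q-value under 0.05 (y axis, %), by position in gene order from 5 genes before to 5 genes after a member (x axis). The shares run from 17.0% to 33.3% for falls and from 20.0% to 30.4% for rises, on both sides of the dashed lines at 24.5% and 27.9% for all tested nuclear non-members.

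Steep rises also occurred beside members. Of the 202 tested neighbours, 12 were called in the authors' deposited table and rose at least 4-fold, or 5.94%, beside 7.50% of the 4331 tested nuclear genes that are not members. CMK114C, which ends 1553 bp before CMK115C, went from 24.0 to 572 FPKM, 23.9-fold higher, while CMK115C itself was 165-fold lower. CMR109C, 803 bp from the member CMR110C, went from 16.2 to 390 FPKM, 24.0-fold higher, while CMR110C went from 723 to 146 FPKM. CMN328C, 7875 bp from the member CMN326C, went from 12.7 to 1049 FPKM, 82.4-fold higher, while CMN326C went from 370 to 39.1 FPKM. These 3 neighbours were chosen after their values were seen, as those with the largest rise among the 12.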

How the data were processed

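Per the submitters' processing notes, reads were aligned with TopHat2 2.0.5 and the conditions compared with Cuffdiff. Build, annotation and scaling were not given in the sources used here. Per the file headers, the deposited table gives FPKM per condition, a log2 fold change, a p-value and a q-value per gene; its test statistic, a score deposited by the authors, was not used. In 77 cells the log2 fold change is a spreadsheet error and was treated as missing. A gene counted as changed at the authors' q-value under 0.05 with a valid test, and its direction was read from FPKM. Coordinates are printed as deposited, and gene order is that of the table.

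For nuclear genes at unshared loci of 650 bp or more, the worth of 1 fragment in each library was fitted from the lowest FPKM, and whole-fragment sums that gave the 6 deposited digits of both values and of the log2 fold change were sought. The fitted depths were 845127 and 643989 fragments in darkness and 540167 and 418040 under blue light. Of 3837 genes, 3226 had 1 solution for all 4 libraries, and 6 had none. Which replicate number a recovered library bears is unknown, so libraries are called deeper and shallower. Where darkness fragments were not resolved, their number is an estimate that assumes equal FPKM in both libraries. Recovered FPKM of tested genes were compared with limma 3.58.1 (R 4.3.3) on log2(FPKM + 1), with Benjamini-Hochberg adjustment over 3018 genes. Both steps were run on simulated data, drawn as whole fragments for genes already resolved and with the same fitted worths. Such a run cannot show whether the worths or the assumption of whole fragments are right. Intervals and floors cover counting error only, and any spread between libraries may be technical. If the libraries of a condition share a culture, p-values measure only that spread.

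The members, lists and tests were chosen with earlier results of these data known. Named members are the 8 with the lowest ratio, the 8 with the highest darkness value, up to 8 that did not pass, up to 10 with an adjacent member, and the 3 nearest each limit, with the 3 nearest outside; other named genes were chosen after their values were seen. Product names and promoters were not used here, so the planned functional groups and promoter motifs were not examined.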

Additional observations from a re-analysis of the deposited data

How the results depend on the processing

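The number of members, 117, moved by more than 1.5-fold only when the limit on the ratio was raised to 0.33, which gave 188 genes, because more genes then qualify; a limit of 0.2, darkness limits of 50 and 200 FPKM, shared loci and other span limits gave 89 to 125. Of the calls by the deposited test, 108 became 106 at a q-value under 0.01 and stayed at 108 with a limit of 1.5-fold. By limma on recovered libraries 34 were called, all 34 that could be tested, since fewer members have recovered fragments. With any 1 recovered library left out, 34 to 34 members were called, where a lone library is assumed to vary like the others, and the count was also 34 with pseudocounts of 0.1 and 10 FPKM, without the trend, and with other gene filters; the members' choice fixes this count. The members' median log2 fold change of -2.86 ran from -2.91 to -2.69 with pseudocounts of 1 and 10 FPKM, centring, and without the 4 members of equal length, an alternative added after the data were seen. Adjacent members numbered 12 instead of 8 among tested genes at unshared loci. The neighbours' median of -0.099 turned to 0.011 with the nearest tested gene at an unshared locus; the cause was not tested. No paired analysis was possible because the deposited columns carry no replicate number. Depth limits the low values: 14 of 91 members rested on at most 10 blue light fragments and 7 on at most 3.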
